A study of Mus musculus with 6 samples.

Results

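The liver-enriched transcription factors outside the nuclear receptor family were examined in hepatocytes before and 48 h after partial hepatectomy (PHx). The 9 genes, chosen by name, were Cebpa, Foxa1, Foxa2, Foxa3, Onecut1, Onecut2, Prox1, Gata4 and Gata6, out of 55450 annotated genes. All 9 had at least 10 counts in at least 3 libraries, and thus were among the 17037 genes tested. The measurements came from 6 bulk RNA-Seq libraries of total RNA, 3 from undamaged liver (0 h) and 3 from regenerating liver, taken 48 h after an operation (PHx) in which most of the liver mass is removed. Hepatocytes were isolated by collagenase perfusion, which digests the tissue so that hepatocytes can be separated from other liver cells, from male mice on a normal diet, whose strain is C57BL/6 in the sample labels and C57BL/6J in the study's methods. The mice were 10 to 12 weeks old by the sample labels, and a slightly younger age is given elsewhere. The labels name no genetic change and no drug in either group, and no sham-operated group was analysed here, so the effects of anaesthesia and surgery cannot be told apart from those of the loss of liver mass. Each library was described as a separate preparation, and p-values measure the spread between these preparations.

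These factors bind DNA in the promoters and enhancers of liver genes and, in combination with nuclear receptors, set up and maintain the gene programme of the hepatocyte. CEBPA, a basic leucine zipper protein, promotes metabolic gene expression and restrains proliferation, whereas the FOXA proteins open compacted chromatin during liver specification, and ONECUT1, ONECUT2, PROX1, GATA4 and GATA6 act during outgrowth of the liver bud and in the choice between the hepatocyte and the bile duct fate. In adult liver, their family members bind many of the same regulatory regions, and a change in 1 member can therefore be read only beside its relatives.

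The undamaged libraries held between 31419443 and 36346220 gene counts and the 48 h libraries between 31684152 and 33093006. Levels are given as CPM, the count scaled to a common library size with trimmed-mean (TMM) factors, so that 3 counts corresponded to between 0.0839 and 0.102 CPM. The log2 fold changes are 48 h against 0 h from edgeR's quasi-likelihood test. Adjusted p-values are corrected by the Benjamini-Hochberg method over all genes tested. The 10 hepatocyte markers summed to between 88763 and 104548 CPM at 0 h and to between 56875 and 76074 CPM at 48 h. Alb, which encodes albumin, made up most of each sum. It was at 55123 to 72883 CPM at 0 h and at 32307 to 39692 CPM at 48 h. Fgb, encoding a fibrinogen chain, was the 1 marker called higher, and that call was lost in 2 of 14 alternative analyses. Another 3 were lower, Alb and Ttr (encoding transthyretin) among them, and 6 were not called. Of all tested genes, 21.4% were called higher and 19.3% lower. By deconvolution of its bulk data, the paper found nearly all cells of each replicate to be hepatocytes. In bulk RNA, fewer cells of a type and less RNA per cell cannot be told apart.

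Of the 9 factors, Foxa3, Prox1 and Gata6 rose after PHx and Cebpa, Onecut1 and Gata4 fell. The Gata4 call was lost in 7 of 14 alternative analyses and that of Onecut1 in 2, and Foxa1 gained one in 1, with between 1 and 4 factors called lower. The 3 increases stand against 21.4% of all tested genes called higher, and the 3 decreases against 19.3% called lower. In each of the 3 factors that rose, all 48 h libraries lay above all 0 h libraries, as in 27.8% of all tested genes, and in each of the 3 that fell they lay below, as in 25.0%. Foxa1, Foxa2 and Onecut2 did not pass the test, and their 0 h and 48 h libraries overlapped. The median log2 fold change of the 9 factors was -0.24, compared with -0.00325 over all tested genes. In the FOXA and ONECUT families 1 member each passed the test, and in the GATA family both passed, in opposite directions.

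**Figure D1:**
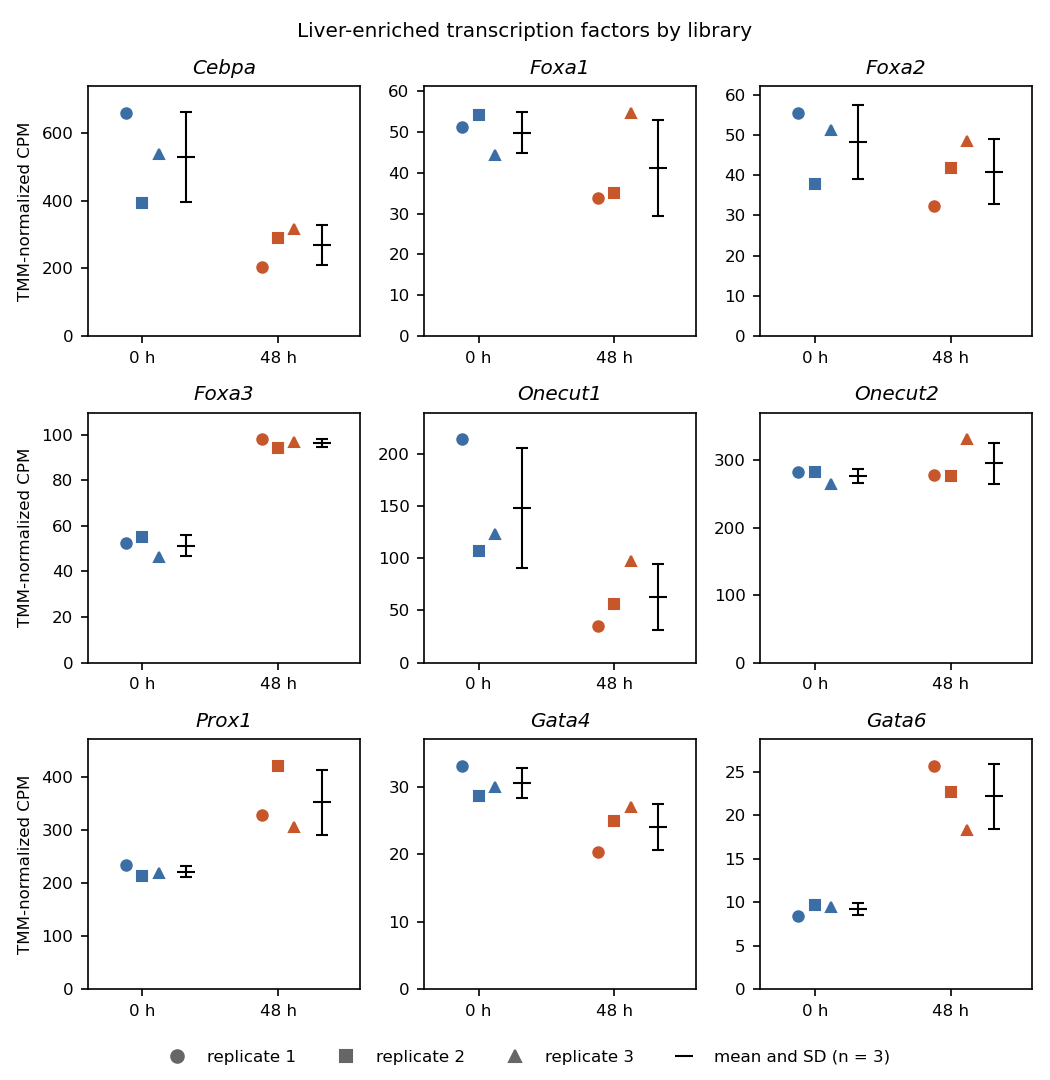
CPM (TMM-scaled) of each of the 9 factors in each library, with 1 panel per gene; the symbols are the 3 libraries of a time point, and the bar beside them is the mean with its SD (n = 3). The 0 h and 48 h points are separated in Cebpa, Foxa3, Onecut1, Prox1, Gata4 and Gata6 and overlap in Foxa1, Foxa2 and Onecut2.

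**Figure D2:**
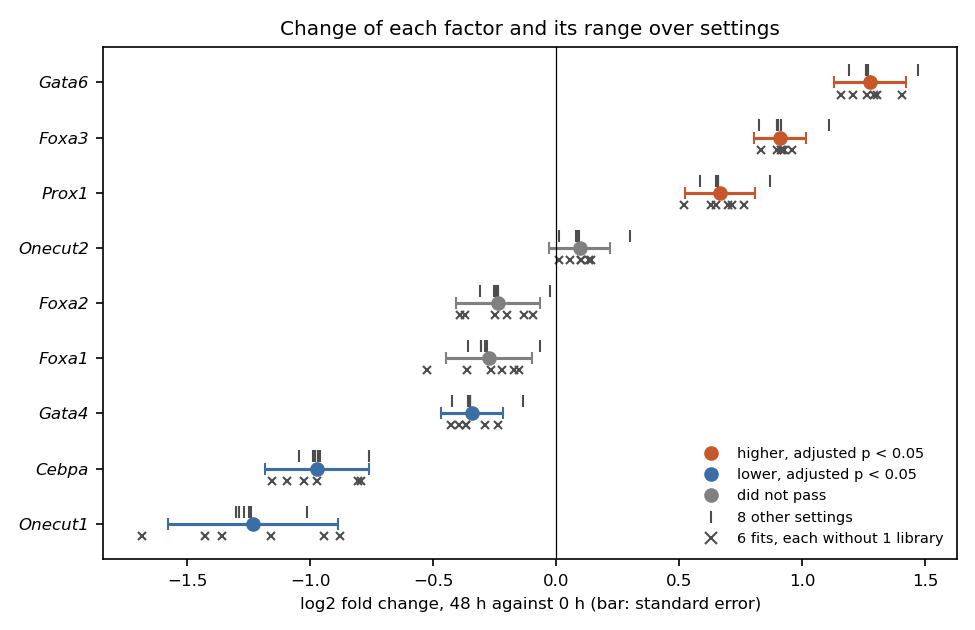
Log2 fold change (48 h against 0 h) of the 9 factors from edgeR, with bars of 1 standard error, and its values under 8 other settings (vertical ticks) and in 6 fits without 1 library each (crosses). Gata6, Foxa3 and Prox1 lie above 0 by 1.27, 0.91 and 0.67, and Onecut1, Cebpa and Gata4 below it at -1.23, -0.97 and -0.34.

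The promoters of Cebpa and Foxa3, which moved in opposite directions, and of Foxa2, which did not pass the test, are shown as the 250 bases before the transcription start, in the 5′ to 3′ direction of the gene (RefSeq, GRCm38.p6). The capitals mark TATAAA in Cebpa and Foxa3 and an ONECUT word (ATCGAT or else ATTGAT, on either strand) in Foxa2.
Cebpa, chr7:35119043-35119292, plus strand: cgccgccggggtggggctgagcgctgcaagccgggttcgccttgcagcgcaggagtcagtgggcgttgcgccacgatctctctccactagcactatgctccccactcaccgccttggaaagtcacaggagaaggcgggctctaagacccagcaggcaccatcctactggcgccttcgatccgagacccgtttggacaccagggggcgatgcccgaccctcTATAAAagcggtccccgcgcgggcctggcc
Foxa3, chr7:19023540-19023789, minus strand: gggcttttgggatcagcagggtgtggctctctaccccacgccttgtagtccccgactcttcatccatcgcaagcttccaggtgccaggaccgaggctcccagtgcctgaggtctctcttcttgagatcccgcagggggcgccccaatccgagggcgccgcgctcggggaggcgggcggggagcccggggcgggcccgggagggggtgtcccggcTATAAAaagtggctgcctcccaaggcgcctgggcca
Foxa2, first of 3 starts, chr2:148046970-148047219, minus strand: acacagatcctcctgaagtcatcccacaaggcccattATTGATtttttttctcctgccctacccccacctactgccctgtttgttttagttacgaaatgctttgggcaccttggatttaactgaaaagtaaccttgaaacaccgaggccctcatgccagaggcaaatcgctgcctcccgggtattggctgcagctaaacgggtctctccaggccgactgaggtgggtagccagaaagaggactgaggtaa
TATAAA between 40 and 20 bases before the start, a search added after the sequences had been seen, was present in 1.91% of the 32851 mouse promoters in the table, and in these 2 members it stood 30 to 25 bases before the start (Cebpa) and 36 to 31 bases before it (Foxa3). The ONECUT word (ATTGAT) stood 213 to 208 bases before the first Foxa2 start, and 7.4% of all promoters held such a word. Words of the FOXA family (TGTTTAC or else TATTTAC or else TGTTTGC, both strands, 9.73% of all promoters) were found 141 to 135 bases before the Foxa1 start and 120 to 114 bases before the second Prox1 start. A GATA word (AGATAA or else TGATAA, both strands, 16.6% of all promoters) was found 183 to 178 bases before the third Foxa2 start. A C/EBP word (TTGCGCAA or else TTGCACAA or else TTGCATAA or else TTGCGTAA, both strands, 1.89% of all promoters) was in none of the 9 promoter entries, which cover Cebpa, Foxa1, Foxa2, Foxa3, Onecut1 and Prox1. These matches describe the letters in these windows only. The promoters of Gata4, Gata6 and Onecut2 were not analysed here.

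Cebpa, the basic leucine zipper factor that restrains proliferation and maintains genes of glucose and lipid metabolism, fell after PHx, and its mean was 1.96 times as high at 0 h as at 48 h. It is a single-exon gene on the plus strand of chromosome 7, from 35119293 to 35121928 (GRCm38, ENSMUSG00000034957.10). Cebpa was at 659.7, 392.8 and 537.2 CPM in the undamaged libraries and at 203.8, 290.2 and 315.7 CPM at 48 h. The highest 48 h library was thus below the lowest 0 h library, although the undamaged libraries themselves were spread widely. The means were 529.9 ± 134 and 269.9 ± 58.6 CPM (SD, n = 3 each), a log2 fold change of -0.97 (SE 0.21, adjusted p = 0.00449).

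Of the other C/EBP genes tested, Cebpd and Cebpg rose, and Cebpb and Cebpe did not pass. Cebpb, the relative induced by growth and inflammatory signals, was at 92.4, 55.7 and 79.7 CPM at 0 h and at 100.5, 89.0 and 72.7 CPM at 48 h. These groups overlapped, and Cebpb did not pass the test (log2 fold change 0.20, adjusted p = 0.409). Within each library, the log2 ratio of Cebpb to Cebpa counts was -2.84, -2.82 and -2.75 at 0 h and -1.02, -1.71 and -2.12 at 48 h. All 48 h libraries had a higher ratio than all 0 h libraries, and the means differed by 1.19. The exact permutation p was 0.1 (two-sided; 0.125 adjusted over the 5 ratios computed), which is the smallest p that 3 libraries against 3 allow. Cebpd, which responds to acute-phase signals, rose from 7.36 to 15.7 CPM (log2 fold change 1.10, SE 0.206, adjusted p = 0.00188). Cebpg, a relative that forms heterodimers with the others, rose from 21.3 to 27.6 CPM (0.37, SE 0.129, adjusted p = 0.0419), a call that was lost in 9 of 14 alternative analyses. Of 11 listed relatives of the 9 factors, 10 had a single identifier and 6 of these could be tested. Cebpd and Cebpg were the 2 that rose, and the other 4 (Cebpb, Cebpe, Prox2 and Gata2) did not pass. Among all tested genes, 21.4% were called higher and 19.3% lower. Gata2, a factor of blood and endothelial cells, was at 1.08 CPM at 0 h and 0.563 CPM at 48 h, without overlap between the groups (-0.93, adjusted p = 0.0727). Onecut3, Gata1, Gata3 and Gata5 had at most 12 counts in any library and were not tested.

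The FOXA factors, pioneer factors with a winged-helix DNA-binding domain, divided into Foxa3, which rose, and Foxa1 and Foxa2, which did not pass the test. Foxa3 lies on the minus strand of chromosome 7, from 19013284 to 19023538 (ENSMUSG00000040891.6). It was at 52.5, 55.3 and 46.2 CPM in undamaged liver and at 98.0, 94.4 and 97.0 CPM at 48 h. The 48 h libraries lay close together and well above the undamaged ones. The mean rose from 51.3 ± 4.63 to 96.5 ± 1.84 CPM, which was 1.88 times as high (log2 fold change 0.91, SE 0.105, adjusted p = 8.43e-05).

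Foxa1 is on the minus strand of chromosome 12, from 57540628 to 57546916 (ENSMUSG00000035451.7). It was at 51.1, 54.2 and 44.3 CPM at 0 h and at 33.8, 35.2 and 54.7 CPM at 48 h. A single 48 h library, replicate 3, was above all undamaged libraries, whereas the other 2 were below them. The log2 fold change was -0.27 (SE 0.176, adjusted p = 0.242), and without that library it was -0.53 (adjusted p = 0.0102). Foxa2, on the minus strand of chromosome 2 from 148042877 to 148046969 (ENSMUSG00000037025.11), was at 55.6, 37.9 and 51.2 CPM at 0 h and at 32.4, 41.8 and 48.5 CPM at 48 h. Its groups overlapped, with a log2 fold change of -0.24 (SE 0.172, adjusted p = 0.301).

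Compared within each library, Foxa3 had a log2 count ratio to Foxa2 of -0.08, 0.55 and -0.15 at 0 h and of 1.60, 1.18 and 0.9998 at 48 h. The ratio was higher in all 48 h libraries, with a difference of 1.15 between the means (exact permutation p = 0.1, adjusted p = 0.125). In contrast, the log2 ratio of Foxa1 to Foxa2 was -0.12, 0.52 and -0.21 at 0 h and 0.06, -0.25 and 0.17 at 48 h, so that the groups overlapped (difference -0.07, exact permutation p = 0.8). Per kilobase of exon, the share of Foxa3 in the summed FOXA level was 41.7% ± 3.49 at 0 h and 61.8% ± 5.28 at 48 h. The share of Foxa2 was 33.6% ± 5.80 and then 22.3% ± 2.86, and that of Foxa1 was 24.8% ± 2.31 and then 15.9% ± 3.07. The sum itself was between 57.6 and 64.6 CPM per kb at 0 h and between 71.9 and 84.5 CPM per kb at 48 h, without overlap.

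Of the 2 ONECUT factors, which carry a cut domain and a homeodomain, Onecut1 fell and Onecut2 did not pass the test. Onecut1, also called HNF6, lies on the plus strand of chromosome 9, from 74861921 to 74891781 (ENSMUSG00000043013.10). It was at 214.0, 107.4 and 123.4 CPM in undamaged liver and at 35.2, 56.6 and 97.4 CPM at 48 h. Every 48 h library was below every 0 h library, but the highest 48 h library came close to the lowest undamaged one. The mean fell from 148 ± 57.5 to 63.1 ± 31.6 CPM, 2.35 times as high at 0 h as at 48 h (log2 fold change -1.23, SE 0.345, adjusted p = 0.0161). Without replicate 1 of the undamaged group, the log2 fold change was -0.88 (adjusted p = 0.0675), and without replicate 2 at 48 h it was -1.16 (adjusted p = 0.0552). Of its exon bases, 52.8% are shared with the noncoding gene Gm20649 on the same strand, which was counted at 0 in every library. Whether reads in that stretch were assigned to either gene was not stated, so the level of Onecut1 may be understated.

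Onecut2, which acts together with Onecut1 in liver development, is on the plus strand of chromosome 18, from 64340020 to 64400987 (ENSMUSG00000045991.19). It was at 283.0, 282.8 and 264.9 CPM at 0 h and at 278.5, 277.1 and 331.1 CPM at 48 h. A single 48 h library, replicate 3, exceeded the undamaged range, and the log2 fold change was 0.09 (SE 0.123, adjusted p = 0.575). The log2 ratio of Onecut2 to Onecut1 counts was 0.40, 1.40 and 1.10 at 0 h and 2.98, 2.29 and 1.77 at 48 h. It was higher in all 48 h libraries, by 1.38 between the means (exact permutation p = 0.1, adjusted p = 0.125). Per kilobase of exon, Onecut1 made up 66.6% ± 7.61 of the summed ONECUT level at 0 h and 43.9% ± 10.3 at 48 h. When only exon shared with no other gene was counted in the length, its share was 80.7% ± 5.23 and then 61.8% ± 9.92, so that the larger member at 48 h depended on the exon length used.

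Prox1, a homeodomain factor that marks hepatoblasts and remains on in adult hepatocytes, rose after PHx. It is on the minus strand of chromosome 1, from 190118035 to 190170714 (ENSMUSG00000010175.13). Prox1 was at 233.4, 213.0 and 218.4 CPM in undamaged liver and at 328.4, 420.3 and 306.2 CPM at 48 h. All 48 h libraries were above the narrow undamaged range. The mean rose from 221.6 ± 10.6 to 351.7 ± 60.5 CPM, which was 1.59 times as high (log2 fold change 0.67, SE 0.143, adjusted p = 0.00393). Prox1 is also a marker of lymphatic endothelial cells. Of 5 lymphatic markers, Pdpn, Ccl21a and Mmrn1 had at most 3 counts in every library. The 5 summed to between 55.5 and 91.7 CPM at 0 h and to between 33.9 and 50.0 CPM at 48 h, nearly all of it from Reln, an extracellular matrix protein that fell (-0.82, adjusted p = 0.00752), and Flt4, a growth factor receptor that did not pass (-0.53, adjusted p = 0.0811). The part of lymphatic cells in the values of Prox1 was not tested.

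The 2 GATA zinc finger factors moved in opposite directions. Gata6, on the plus strand of chromosome 18 from 11052064 to 11085635 (ENSMUSG00000005836.10), was at 8.37, 9.64 and 9.49 CPM at 0 h and at 25.7, 22.7 and 18.2 CPM at 48 h. Every 48 h library was well above the undamaged range. The mean rose from 9.17 ± 0.689 to 22.2 ± 3.72 CPM, which was 2.42 times as high (log2 fold change 1.27, SE 0.146, adjusted p = 8.09e-05) and the largest increase among the 9 factors. Gata4, on the minus strand of chromosome 14 from 63198922 to 63271692 (ENSMUSG00000021944.15), was at 33.1, 28.6 and 29.97 CPM at 0 h and at 20.3, 24.9 and 27.0 CPM at 48 h. The groups did not overlap, but the highest 48 h library lay near the lowest undamaged one. The log2 fold change was -0.34 (SE 0.125, adjusted p = 0.0499), at the edge of the threshold. This call was lost in 7 of 14 alternative analyses, and with scaling by library size alone the log2 fold change was -0.14 (adjusted p = 0.464).

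Within each library, the log2 ratio of Gata6 to Gata4 counts was -1.98, -1.57 and -1.66 at 0 h and 0.33, -0.13 and -0.56 at 48 h. The ratio was higher in all 48 h libraries, by 1.61 between the means (exact permutation p = 0.1, adjusted p = 0.125). Per kilobase of exon, the share of Gata6 in the sum of both genes was 15.3% ± 1.90 at 0 h and 35.8% ± 7.11 at 48 h, while the sum was 9.23 ± 0.483 and then 9.57 ± 0.369 CPM per kb. Gata4 is also expressed in sinusoidal endothelial and stellate cells of the liver. The 12 sinusoidal endothelial markers summed to between 258 and 407 CPM at 0 h and to between 187 and 205 CPM at 48 h. Of these markers 11 fell, beside 19.3% of all tested genes called lower. The decreases were led by Oit3 (-1.51, adjusted p = 0.000113), Fcgr2b (-1.11, adjusted p = 0.000911) and Kdr (-1.06, adjusted p = 0.00114). For Clec4g and Pecam1, which are among the 11, the groups overlapped. The 9 stellate markers summed to between 33.2 and 59.8 CPM at 0 h and to between 41.4 and 46.0 CPM at 48 h, with Col1a1 higher (2.30) and Colec11 lower (-1.21). The part of these cells in the values of Gata4 and Gata6 was not tested.

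**Figure D3:**
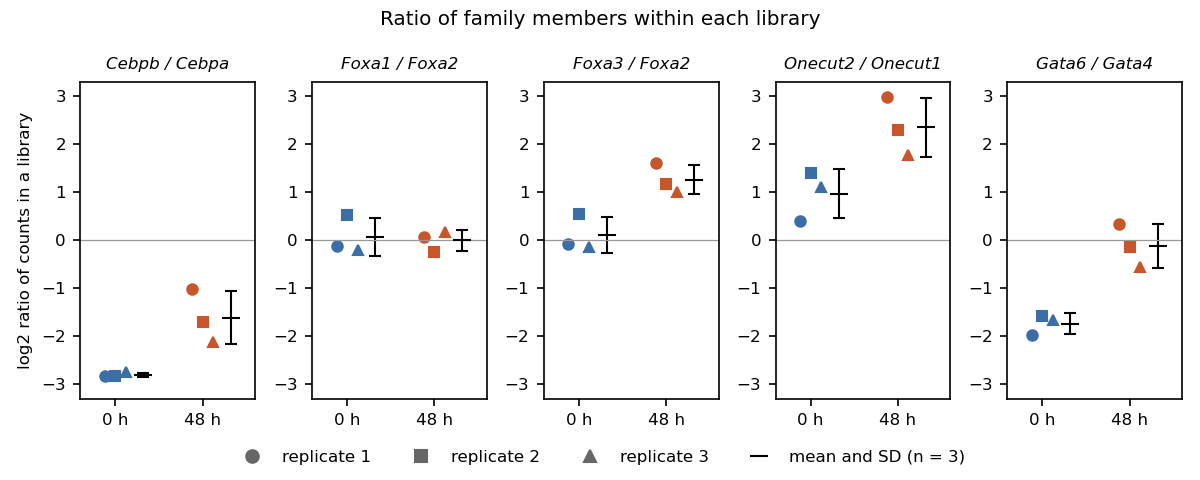
Log2 ratio of counts between relatives within each library, with symbols for the 3 libraries of a time point and the mean with its SD (n = 3) beside them. The groups are separated for Cebpb to Cebpa, Foxa3 to Foxa2, Onecut2 to Onecut1 and Gata6 to Gata4 and overlap for Foxa1 to Foxa2.

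FOXA and ONECUT factors, Prox1 and Gata6 are also expressed in bile duct cells or their precursors. Of 9 cholangiocyte markers, Krt19, Krt7, Epcam and Cftr had at most 4 counts in every library. The 9 summed to between 65.5 and 94.1 CPM at 0 h and to between 61.8 and 72.6 CPM at 48 h, with Pkhd1, a protein of the primary cilium, lower (-1.05, adjusted p = 2.82e-05). Spp1, a secreted phosphoprotein, was higher (1.51, adjusted p = 0.0212) with overlapping groups and a call lost in 3 of 14 alternatives, and Sox9, a factor of duct cells, was at 0.41 (adjusted p = 0.249). The 9 Kupffer cell markers summed to between 62.8 and 95.7 CPM at 0 h and to between 96.2 and 119 CPM at 48 h, with Marco (3.19) and Cd5l (0.78), both scavenger receptor family members, higher and the other 7 not called, from Adgre1 (-0.34) to Timd4 (0.38). The part of bile duct and Kupffer cells in the values of the factors was not tested. The 8 neutrophil markers summed to at most 0.408 CPM at 0 h and 1.06 CPM at 48 h.

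Levels of different genes were compared as CPM per kilobase of exon. Cebpa had the highest level at both time points, at 201 ± 50.7 CPM per kb at 0 h and 102 ± 22.2 at 48 h, without overlap with the next gene. At 0 h it was followed by Onecut1 (36.1 ± 14.0), Prox1 (26.4 ± 1.26), Foxa3 (25.2 ± 2.27), Foxa2 (20.3 ± 3.89) and Onecut2 (17.1 ± 0.639 CPM per kb), and each of these overlapped its neighbour in the order. Foxa1 (15.0 ± 1.52), Gata4 (7.82 ± 0.586) and Gata6 (1.41 ± 0.106 CPM per kb) came last, each below the gene before it in all libraries. At 48 h the order after Cebpa began with Foxa3 (47.4 ± 0.903) and Prox1 (41.9 ± 7.21 CPM per kb), which overlapped each other and, on this length, lay above all others. Onecut2 (18.2 ± 1.90), Foxa2 (17.3 ± 3.41), Onecut1 (15.3 ± 7.69) and Foxa1 (12.4 ± 3.52) formed a series of overlapping neighbours, and Gata4 (6.16 ± 0.867) and Gata6 (3.41 ± 0.572 CPM per kb) again came last. Counted per kilobase of its unshared exon only, Onecut1 was at 76.3 ± 29.6 and then 32.5 ± 16.3 CPM per kb. On that length the order changed, since Onecut1 stood above Prox1 without overlap at 0 h, and at 48 h it ranked after Prox1 with libraries between 18.1 and 50.2 CPM per kb, which overlapped those of Foxa3, Prox1, Onecut2 and Foxa2.

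**Figure D4:**
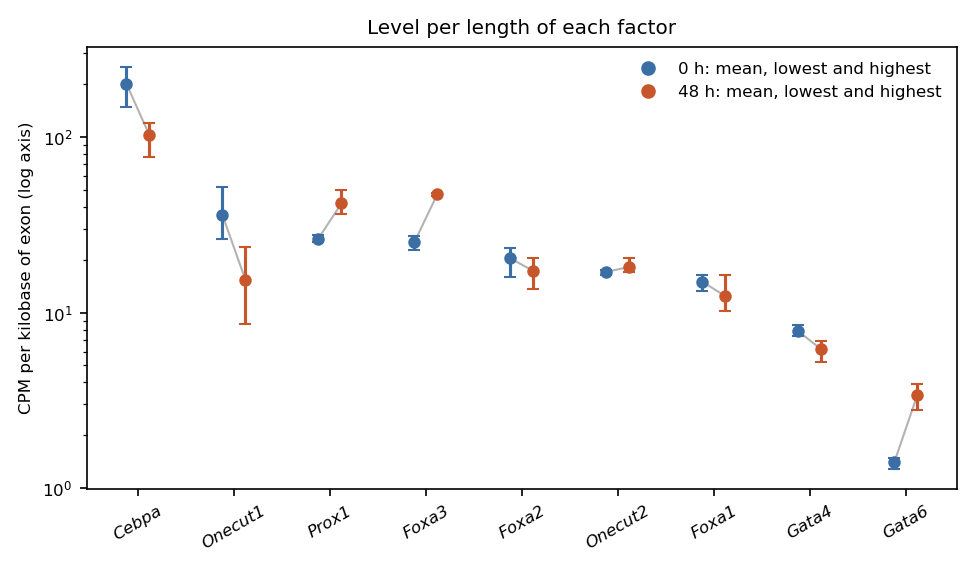
Level of each factor in CPM per kilobase of exon on a logarithmic axis, as the mean of each time point with bars from the lowest to the highest of its 3 libraries. Cebpa has the highest level at both time points (201 and 102 CPM per kb), and Foxa3 and Prox1 stand next at 48 h (47.4 and 41.9).

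The libraries of a time point differed more for some factors than for others. The coefficient of variation was highest for Onecut1, at 38.7% at 0 h and 50.1% at 48 h, and was 25.2% and 21.7% for Cebpa. It was 3.75% and 10.4% for Onecut2 and 9.03% and 1.91% for Foxa3. At 48 h, replicate 1 was the lowest library for 5 of the 9 factors (Cebpa, Foxa1, Foxa2, Onecut1 and Gata4), and replicate 3 was the highest for these 5 and for Onecut2. Gata6 was highest in replicate 1 and lowest in replicate 3. At 0 h, replicate 1 was the highest library for 6 factors, with Cebpa, Foxa2 and Onecut1 among them.

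Noncoding genes annotated near the factors were measured in the same libraries. Near Foxa2 lies 9030622O22Rik, a long noncoding RNA gene on the same strand whose start is 6766 bases downstream of that of Foxa2. It was at 62.2, 63.8 and 42.8 CPM at 0 h and at 10.6, 15.5 and 20.6 CPM at 48 h. All 48 h libraries were far below the undamaged ones, whereas those of Foxa2 overlapped. Its log2 fold change was -1.86 (SE 0.228, adjusted p = 0.000128). The log2 ratio of its counts to those of Foxa2, a comparison chosen after the values had been seen, was 0.22 ± 0.508 at 0 h and -1.43 ± 0.187 at 48 h (difference -1.65, exact permutation p = 0.1). This p is the smallest that 3 libraries against 3 allow. It gives no support, since the pair was chosen with the values known.

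Antisense genes at Prox1 and Cebpa had low counts. Prox1os, which starts 418 bases inside Prox1 on the other strand, was at 3.71, 3.32 and 3.55 CPM at 0 h and at 1.51, 1.93 and 1.43 CPM at 48 h. It fell while Prox1 rose (log2 fold change -1.12, SE 0.205, adjusted p = 0.0016). The log2 ratio of Prox1os to Prox1 counts, also chosen after the values had been seen, was -5.97 ± 0.031 at 0 h and -7.74 ± 0.0133 at 48 h (difference -1.78, exact permutation p = 0.1). Here too the p is the smallest possible and gives no support, because both genes were already known to move in opposite directions. Gm45091, antisense within Cebpa, had between 24 and 39 counts at 0 h and between 8 and 16 at 48 h (log2 fold change -1.40, SE 0.375, adjusted p = 0.0132), in the direction of Cebpa. Without 0 h replicate 1, this was -1.08 (adjusted p = 0.0513). The strand setting of the counting was not stated, so that reads of an antisense gene and its partner cannot be told apart where their exons overlap. These overlaps cover 1.93% of the exon bases of Cebpa, 1.59% of those of Prox1 and, with 1010001N08Rik (-0.39, adjusted p = 0.178), 1.43% of those of Gata6. St8sia3os near Onecut2, with between 4 and 27 counts per library, was lower at 48 h (-1.54, SE 0.410, adjusted p = 0.0128). Gm27420, a microRNA gene near Foxa2, had 0 counts in every library. Sympk, whose start lies at -839 bases from that of Foxa3 on the other strand, was not called (0.07, adjusted p = 0.672), and neither were Gm28182 near Onecut1 (-0.10, adjusted p = 0.790) and Gm28172 near Prox1 (0.82, adjusted p = 0.058).

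**Figure D5:**
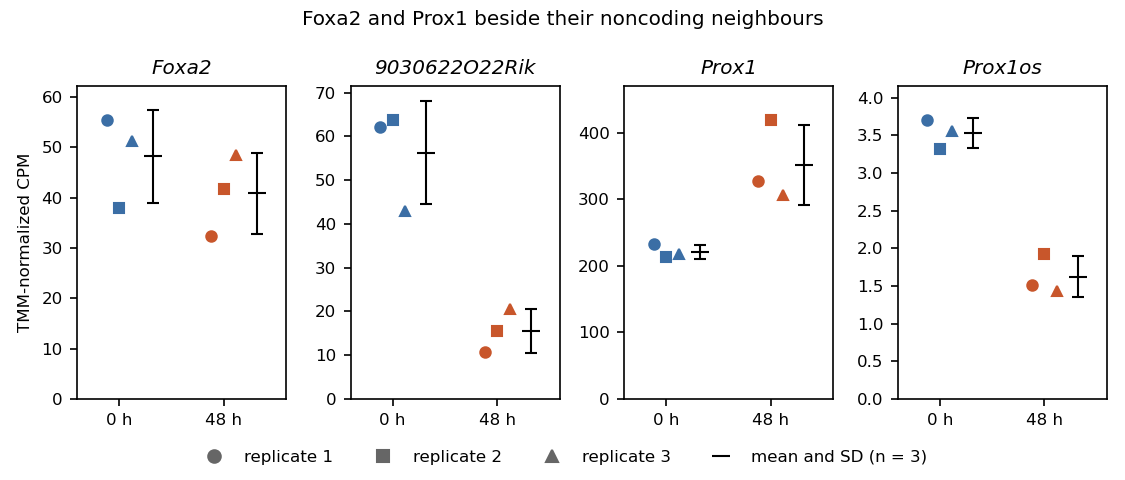
CPM of 9030622O22Rik and Prox1os beside Foxa2 and Prox1 in each library, with the mean and SD (n = 3) of each time point beside the symbols. Both noncoding genes are lower in all 48 h libraries than in all 0 h libraries, while Foxa2 overlaps and Prox1 is higher.

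Of 21 other transcription regulators of the hepatocyte, 5 rose, 4 fell and 12 did not pass the test, with a median log2 fold change of -0.03, beside 21.4% of all tested genes called higher and 19.3% called lower and their median of -0.00325. Those that rose were Dbp (1.62, adjusted p = 0.00311) and Tef (0.75, adjusted p = 0.0021), both clock-controlled factors, Tbx3, a T-box factor of the hepatoblast (0.80, adjusted p = 0.000846), and Nfia and Foxo1, the last with a call lost in 4 of 14 alternative analyses. Dbp was at 22.002, 59.96 and 68.63 CPM at 48 h, lowest in replicate 1 and highest in replicate 3 as for Cebpa and Onecut1. Those that fell were Mlxipl, which drives glycolytic and lipogenic genes in response to glucose (-1.53, adjusted p = 0.000145), Hhex, a homeobox factor of the early liver bud (-0.72, adjusted p = 0.00328), Foxo3 and Creb3l3.

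Among 12 liver genes described as targets of these factors, 3 rose, 5 fell and 4 did not pass the test, with a median log2 fold change of -0.28. Over all tested genes, 21.4% were higher and 19.3% lower, with a median of -0.00325. G6pc, the last enzyme of glucose release and a target of CEBPA and FOXA factors, was at 1318, 1188 and 1304 CPM at 0 h and at 177.8, 156.8 and 96.9 CPM at 48 h. It fell by more than any other gene of the list (log2 fold change -3.14, adjusted p = 2.36e-06). Igfbp1, a secreted binding protein of insulin-like growth factors, fell (-2.14, adjusted p = 0.00346, and between -2.80 without 48 h replicate 1 and -1.72 without 48 h replicate 3), as did Ttr, the thyroxine carrier (-1.32, adjusted p = 8.16e-05), Alb (-0.86) and Gys2, the liver glycogen synthase (-0.79). Cyp7a1, the rate-limiting enzyme of bile acid synthesis, rose from 78.3 to 262.9 CPM (1.75, adjusted p = 0.0018), as did Pfkfb1 (0.84) and Afp, the fetal plasma protein (0.61, a call lost in 6 of 14 alternatives). Tat, Pck1, Cps1 and Hamp did not pass. The list thus held changes in both directions beside those of the factors, and no link between a factor and a target was tested.

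The tested genes whose log2 profile over the 6 libraries, centred on each gene's mean, lay nearest to that of each factor were sought by the root mean square (rms) difference. For Cebpa they were Ephx2, an epoxide hydrolase (0.0955 log2 units), and Hmcn2 (0.104). For Onecut1, the most distant, they were Phlda1 (0.166) and Klf10 (0.208). For Foxa3 they were L3mbtl2 (0.0502) and Trmt2a (0.0520), for Prox1 Gm43948 (0.0319) and Myl12a (0.0374), and for Gata6 Aplf (0.0473) and Dtymk (0.0502), the last an enzyme of thymidine nucleotide synthesis. For Gata4 they were L3hypdh (0.0519) and Epb41l4b (0.0526), for Foxa1 Zfp872 (0.0748) and Igf2bp3 (0.0759), for Foxa2 Ifi35 (0.0620) and Naa60 (0.0665), and for Onecut2 Dus3l (0.0258) and Ttc7b (0.0358). With 17037 candidates and 6 libraries these likenesses are descriptions, and none of the 9 factors was the nearest gene of another.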

How the data were processed

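Total RNA of 6 hepatocyte preparations, 3 at 0 h and 3 at 48 h after PHx, was sequenced, and groups and replicate numbers were taken from the sample labels. The deposited values are raw counts per gene without normalization, made by the authors with htseq-count. The submitters' processing notes list FastQC 0.11.5, Trim Galore 0.6.4, STAR 2.6, HTSeq 0.12.4, DESeq2 and the build mm10, whereas strand setting and overlap mode were not given in the sources used here. Reads on no gene made up 24.3% to 32.7% and ambiguous reads 4.27% to 5.29% of each library, and both were left out of the library sizes. All 55450 gene identifiers matched GENCODE M21, which provided names, coordinates and exon lengths.

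A minimum of 10 counts in 3 or more libraries left 17037 genes. These entered the quasi-likelihood test of edgeR 4.0.16 (R 4.3.3) with TMM factors and no term other than time. The TMM factors were between 0.914 and 0.950 at 0 h and between 1.02 and 1.11 at 48 h, without overlap. Adjusted p-values under 0.05 (Benjamini-Hochberg) were called. The standard error is the log2 fold change divided by the square root of F. Ratios between 2 genes used counts + 0.5 in each library and a two-sided exact permutation test (SciPy 1.17.1). The text names the 9 factors, their listed relatives, genes overlapping them or starting within 10 kb, the 2 nearest profiles of each factor, and of every other list the 3 largest called changes without overlap between groups, with further members of the lists given by value. The members and lists were chosen with earlier results of these data known. Ddit3, listed as a relative, has 2 identifiers and was left out. The tests were first tried on simulated counts. Alternatives were DESeq2 1.42.0, limma-voom (limma 3.58.1), other scalings and filters, the replicate block and leaving out each library. Per-kilobase levels and the ONECUT share on unshared exon and 2 ratios to noncoding neighbours were added after the values had been seen. The floor of 3 counts only marks very low values and is no measure of counting error. Reads carry no molecular identifiers. A few list members are not reported by name.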

Additional observations from a re-analysis of the deposited data

How the results depend on the processing

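Of 126 fold changes of the 9 factors recomputed under 14 alternatives, 116 kept their side of the threshold, 9 lost the call (2 of Onecut1 and 7 of Gata4), 1 gained it (Foxa1 without 48 h replicate 3) and none changed sign. The log2 fold change ranged from -1.16 to -0.76 in Cebpa, from 0.82 to 1.11 in Foxa3, from 0.52 to 0.87 in Prox1 and from 1.16 to 1.47 in Gata6, and these kept their call throughout. The number of factors called lower was between 1 and 4 when single libraries were left out, with 1 without 0 h replicate 1 or without 48 h replicate 2. Scaling by library size alone moved the median log2 fold change of all genes by 0.20 and gave 5308 genes higher and 2110 lower, compared with 3638 and 3288. That setting omits the TMM factors, which were lower in every 0 h library (0.914 to 0.950) than in every 48 h library (1.02 to 1.11). Why the TMM factors differed between the time points was not tested. The log2 ratio of Foxa1 to Foxa2 changed sign, from -0.07 to 0.16 without 0 h replicate 2 and to 0.05 without 48 h replicate 2, within a range of -0.20 to 0.16. Gata4 was also not called by DESeq2 (adjusted p = 0.0532). Among the other genes named, Cebpg lost its call in 9 alternatives, Afp in 6, Foxo1 in 4, Spp1 in 3, Fgb in 2 and Creb3l3 and Gm45091 in 1 each.

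Same-numbered libraries come from different mice, and their deviations from the group means correlated at 0.0335, -0.0674 and -0.138, so the numbers were not treated as a pairing. With the replicate block, 3 factors were higher and 2 lower, Gata4 being lost (-0.35, adjusted p = 0.0861), and 3237 genes were higher and 2884 lower over all genes. The block cannot change the mean difference of the ratios between relatives, since each replicate number holds 1 library of each time point. The differences of Foxa1, Foxa2 and Onecut2 missed the threshold, which does not show equal levels. Gm45091 and St8sia3os had too few counts for the filter of 30 counts and have no value there.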
